A study of Arabidopsis thaliana with 18 samples.

Results

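The genes described here are 200 of the 22093 loci counted in root tips of Arabidopsis thaliana. Their transcripts were low in mock tips 3 h after the tip was cut and had come at least part of the way back 6 h after the cut. They were chosen on the mock libraries alone. CPM, a locus's count scaled to a common total of reads on loci in every library, was put on a log2(CPM + 1) scale and averaged within each group. The early difference is that mean in mock cut tips at 3 h minus that in mock uncut tips, and the late difference is the same for mock cut tips at 6 h. All mock cut 3 h libraries had to lie below all mock uncut libraries, which held for 2458 loci, or 11.1%. Of these, 814 had an early difference of -1.5 or less. For 522 of the 814 the late difference was above 50% of the early one, that is less negative or positive, with no upper limit. The 200 members are those of the 522 with the lowest early differences. The other 292 of the 814 loci are used for comparison. Because the mock libraries chose the members, mock values are given as a description, with no test.

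The study compared root meristems of 7-day-old seedlings, cut 120 µm above the quiescent centre or left uncut, with or without 100 µM L-Kyn. L-Kyn is L-kynurenine, which inhibits an early enzyme of auxin synthesis from tryptophan. Libraries were made with a 3′ kit, so that a count stands for the end of a transcript. At 3 h there were 2 libraries of L-Kyn cut tips and 3 of L-Kyn uncut tips. At 6 h there were 3 of L-Kyn cut tips and 2 of L-Kyn uncut tips. Mock cut tips gave 3 libraries at 3 h and 2 at 6 h, and 3 libraries came from mock uncut tips, whose labels give no hours. The labels name no line, genotype or number of tips beyond the species, and their account of the L-Kyn treatment is incomplete, so the order of L-Kyn and cutting is not known here. Markers of the root tip were present in uncut tips, with the stem cell genes SCR at 39.1, SHR at 47.7 and PLT1 at 29.1 CPM (means of mock uncut tips).

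Some features of the libraries touch the results. The L-Kyn cut 3 h library numbered 2 had values near those of uncut tips. At 3 h the members summed to 934 and 4915 CPM with L-Kyn after cutting, against 3747, 4292 and 3724 CPM in L-Kyn uncut tips at 3 h. The 4915 CPM are those of that library, so results that rest on it are given with and without it. The columns of the table form sets, which no label calls batches. Mock uncut replicates 1 and 2 stand with the libraries taken at 6 h, and mock uncut replicate 3 stands with those taken at 3 h. All L-Kyn uncut 3 h libraries lay below all L-Kyn uncut 6 h libraries for 89 of the 200 members, against 22.2% of all loci. Mock uncut replicate 3 lay below replicates 1 and 2 for 107 of the 200, against 41.3% of all loci. The part of the sets in the results was not tested. L-Kyn uncut 6 h replicate 1 is called cut in its source field and uncut in its title. Its members summed to 6634 CPM, beside 6867 CPM in the other L-Kyn uncut 6 h library and 2139 to 3013 CPM in L-Kyn cut tips at 6 h. In a bulk sample, fewer cells of a type and less RNA per cell cannot be told apart.

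Growth of the root rests on cells of the meristem that divide in files behind the quiescent centre. Genes needed for mitosis and cytokinesis are transcribed in bursts at the end of G2. In plants many of them carry mitosis-specific activator (MSA) elements with the core AACGG in their promoters, to which MYB3R transcription factors bind. When a root tip is cut off, the stump can rebuild a stem cell niche and a root cap from the remaining meristem cells, and auxin made near the cut is needed for this.

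Genes of cell division were frequent among the members, and their promoters often held an MSA core. Members made up 0.905% of all loci, but 13 of 119 loci described as kinesins or microtubule and spindle proteins and 14 of 166 described as cyclins or cell division proteins. The list or RefSeq description of 35 of the 200 members named a cyclin, a mitotic kinase or checkpoint protein, or a kinesin, microtubule, spindle or cytokinesis protein, and these are called cell division members below. That union of classes was formed with the values known. It rests on symbols and description words, so the other members also hold genes of mitosis, such as TPX2 and 3xHMG-box2. The MSA core, searched as AACGG and as its reverse complement CCGTT in the 250 bases before the gene start, occurred in 22 of 35 promoters of cell division members (62.9%), in 54 of 165 promoters of the other members (32.7%) and in 21.6% of 21792 promoters of all loci. At least 2 cores occurred in 34.3%, 9.09% and 3.91% of these promoters. The stretches below hold the cores of the called genes described further on and of 5 B-type cyclins that have a core. The promoters of CYCB1;4, CYCB2;4 and CYCB3;1, B-type cyclins that are also members, hold no MSA core. Each runs 5′ to 3′ on the strand of its gene, from RefSeq assembly TAIR10.1, with the core in capitals.
SYP111 (chr1:2711001-2711027, - strand): agacaaatggacgacAACGGatacatc
MAD2 (chr3:9503028-9503055, + strand): aataacccaaactagCCGTTgcaagtgc
TOPII (chr3:8624567-8624601, + strand): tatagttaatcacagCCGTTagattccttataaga
3xHMG-box2 (chr4:12390103-12390137, + strand): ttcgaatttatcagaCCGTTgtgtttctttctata
TPX2 (chr1:951876-951950, - strand): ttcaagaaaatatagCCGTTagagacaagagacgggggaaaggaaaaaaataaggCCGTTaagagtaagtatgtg
AT5G15510 (chr5:5033825-5033932, + strand): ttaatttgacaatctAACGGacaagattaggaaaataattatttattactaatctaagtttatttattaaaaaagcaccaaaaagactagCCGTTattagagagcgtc
AT2G22610 (chr2:9599343-9599398, + strand): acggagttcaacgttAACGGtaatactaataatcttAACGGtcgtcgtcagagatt
CYCB2;1 (chr2:7663903-7664018, + strand): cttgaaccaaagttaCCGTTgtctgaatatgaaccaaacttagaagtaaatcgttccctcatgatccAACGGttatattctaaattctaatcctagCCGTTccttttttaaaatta
CYCB2;2 (chr4:16901409-16901513, + strand): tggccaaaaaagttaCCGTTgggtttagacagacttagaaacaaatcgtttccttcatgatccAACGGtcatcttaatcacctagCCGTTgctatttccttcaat
CYCB2;3 (chr1:7137856-7137957, - strand): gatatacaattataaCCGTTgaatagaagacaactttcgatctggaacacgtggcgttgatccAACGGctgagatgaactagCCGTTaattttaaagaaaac
CYC1BAT (chr5:1861704-1861861, - strand): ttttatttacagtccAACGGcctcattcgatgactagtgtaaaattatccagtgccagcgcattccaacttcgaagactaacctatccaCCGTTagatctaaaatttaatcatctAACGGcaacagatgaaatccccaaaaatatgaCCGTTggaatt
CYCB1;1 (chr4:17624309-17624381, - strand): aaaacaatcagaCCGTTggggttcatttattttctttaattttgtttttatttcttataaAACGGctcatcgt
The runs of SYP111, MAD2, AT5G15510, CYC1BAT and CYCB1;1 end at the base before the annotated gene start. The core stood once in SYP111, MAD2, TOPII and 3xHMG-box2 and 4 times in CYC1BAT. In CYCB1;1, 2 of 3 cores are shown. A match is a description of these letters and does not show that a factor binds there.

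**Figure D1:**
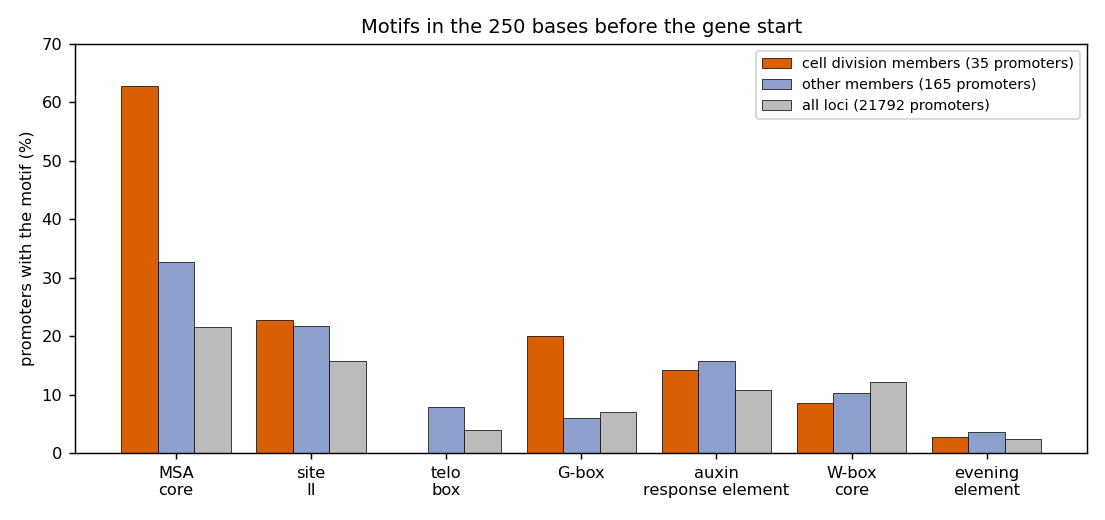
Bars give the percentage of promoters (250 bases before the gene start) that hold a motif on either strand, for cell division members, other members and all loci. The MSA core is in 62.9% of the cell division promoters, against 32.7% and 21.6% in the other groups, while the remaining motifs differ by fewer percentage points.

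Other motifs differed by fewer percentage points. The MSA core is the shortest string searched and the most frequent over all loci, which favours a large gap in percentage points. The G-box CACGTG occurred in 7 of 35 cell division promoters (20%), in 6.06% of the others and in 7.10% of all. At least 2 G-boxes occurred in 8.57%, 0.606% and 1.02% of these promoters. The site II element TGGGCC, a motif of genes for growing cells, occurred in 22.9%, 21.8% and 15.8%. The auxin response element TGTCTC, to which ARF factors bind, occurred in 14.3%, 15.8% and 10.9%. The telo box AAACCCTA occurred in 0%, 7.88% and 4.07%, the W-box core TTGACC in 8.57%, 10.3% and 12.2%, and the evening element AAAATATCT in 2.86%, 3.64% and 2.42%. The E2F sites TTTCCCGC, TTTGGCGC and TTTCGCGC were in 0 or 1 promoter of a member each. Both strands were searched for every motif.

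In mock tips the members were low 3 h after the cut and nearer the uncut level at 6 h, as the rule required. The median early difference was -2.46 and the median late difference -0.69 on the log2(CPM + 1) scale, against -0.11 and 0.02 over all loci. All mock cut 6 h libraries lay above all mock cut 3 h libraries for 189 of 200 members, beside 17.5% of all loci, a contrast that the choice of members used. The late difference was above 0 for 33 members. The return was not complete for most, since all mock cut 6 h libraries still lay below all mock uncut libraries for 110 of 200 members, beside 12.7% of all loci. Against the mock uncut libraries of their own set alone, the median early difference was -2.46 and the late one -0.77. Of the 200 members, 151 still had a late difference above 50% of the early one. Levels in mock uncut tips ran from 3.5 to 633 CPM with a median of 16.4 CPM. In mock cut tips at 3 h the median member had 9 counts over the 3 libraries together, and 17 members had none. With at most 3 counts per library, as for 101 members, the size of the early difference is set by few reads.

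With L-Kyn, most members were still lower in cut than in uncut tips at 6 h, and the cell division members showed larger differences than the others. The difference between L-Kyn cut and L-Kyn uncut tips at 6 h had a median of -1.10 over the members and 0.00 over all loci, beside the late difference of -0.69 in mock tips. It was negative for 182 of 200 members, all 35 cell division members among them. It was below the late mock difference for 151 members, which the choice of members for a high late mock difference favours. The same held for 114 of the 292 loci chosen the other way and for 11155 of all loci. The median was -1.53 over the 35 cell division members, whose late mock difference was -0.88. Over the 165 other members it was -0.97, whose late mock difference was -0.66. The measure that defined return in mock tips was a 6 h difference above 50% of the early mock difference. By it 118 of 200 members were back with L-Kyn, which was 15 of 35 cell division members and 103 of 165 others. Over all loci 53.9% met that measure, a share close to that of the 118 members (59%). All loci had a median early difference of -0.11, so their share is not a rate of return after a fall. Set against mock uncut tips instead, the L-Kyn cut 6 h libraries met it for 104 members, 4 of them cell division members. Of the 292 loci that had not come back in mock tips, 110 (37.7%) met it, and their median L-Kyn difference at 6 h was -1.16, against -1.10 for the members. The median early difference of the 292 was -1.86, against -2.46 for the members. The 50% measure thus asked for a less negative value from the 292, and the shares do not stand at equal limits.

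**Figure D2:**
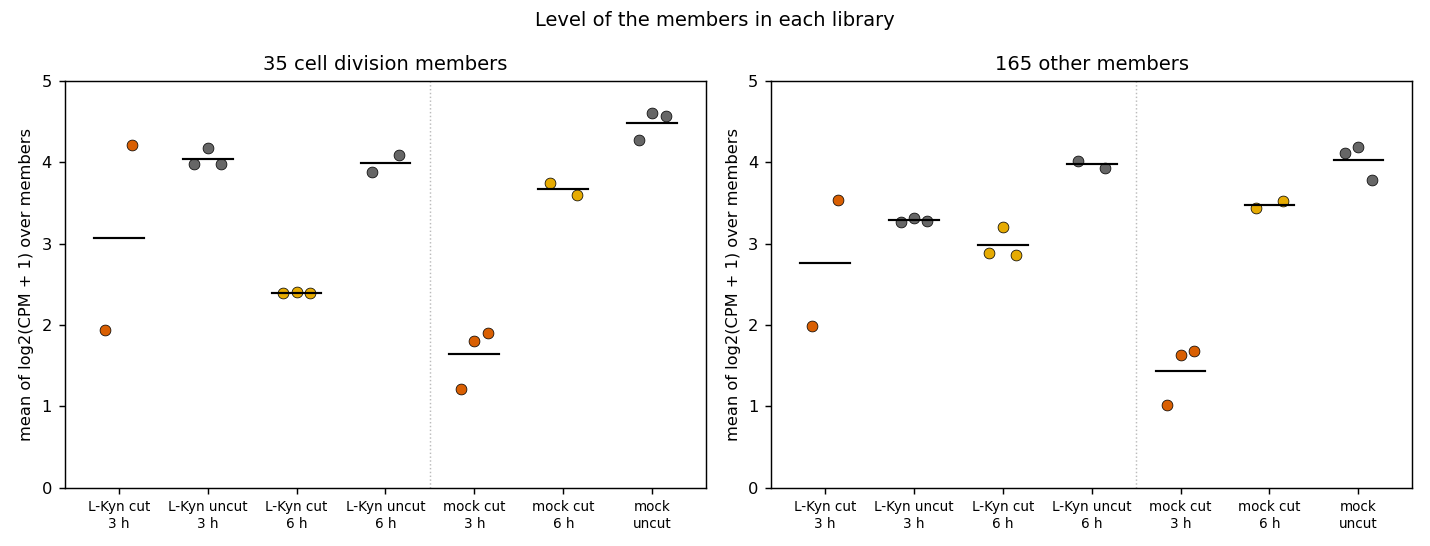
Points are libraries and bars are group means of log2(CPM + 1) averaged over the members, for cell division members (left) and other members (right), with cut tips in orange (3 h) and yellow (6 h) and uncut tips in grey. L-Kyn cut tips at 6 h lie at 2.39 to 2.4 for cell division members, below mock cut tips at 6 h at 3.59 and 3.74. The L-Kyn cut 3 h library numbered 2 lies at 4.21, among the uncut tips.

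The summed level of the cell division members shows the pattern by library. It was 202, 216 and 199 CPM in the L-Kyn cut libraries at 6 h, against 676 and 904 CPM in L-Kyn uncut tips at 6 h. In mock tips it was 79.1, 138 and 140 CPM at 3 h after the cut and 548 and 502 CPM at 6 h, against 866, 1187 and 972 CPM in mock uncut tips. L-Kyn cut tips at 6 h thus lay between the mock cut tips at 3 h and those at 6 h, with no overlap with either. L-Kyn cut tips at 6 h lay below both mock cut 6 h libraries for 31 of 35 cell division members and 67 of 165 other members, beside 17% of all loci. Mock cut tips at 6 h took part in the choice of members. In the labels, hours count from the cut in mock tips and describe the treatment in L-Kyn tips, so that a difference in time since cutting and L-Kyn cannot be told apart here.

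The comparison of cut with uncut tips under L-Kyn sets libraries against each other that did not choose the members, although the mock libraries share in the estimate of spread. All L-Kyn cut 6 h libraries lay below both L-Kyn uncut 6 h libraries for 124 of 200 members, against 17.3% of all loci, and for 31 of 35 cell division members. The exceptions among the 35 were MYB3R-4, AT5G02370, emb1688 and UVI4-LIKE. The edgeR quasi-likelihood test used 1 model of 18 libraries and Benjamini-Hochberg adjustment over 16354 genes, with a threshold of 0.05. By it 9 of 200 members fell in L-Kyn cut tips at 6 h, none rose, and 0.263% of all genes were called lower and 0.342% higher (0.605% in all). At an unadjusted p under 0.05, 94 members were lower and 1 was higher, while 1418 of the 16354 genes were lower and 1406 higher. The L-Kyn cut 3 h library numbered 2 is in neither group compared, but shares in the estimate of spread, the scaling and the filter. Without it 16934 genes were tested, and 49 members were called lower and none higher. Of all genes 1.56% were then called lower and 1.75% higher (3.31% in all). The 49 included 16 of the 35 cell division members. Of the 292 loci that had not come back in mock tips, 26 of the 244 tested were called lower in the fit of all libraries (10.7%, against 4.5% of the members), and 86 of 264 in the fit without that library (32.6%, against 24.5% of the members). Leaving out any 1 of the 5 libraries compared left no member called.

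**Figure D3:**
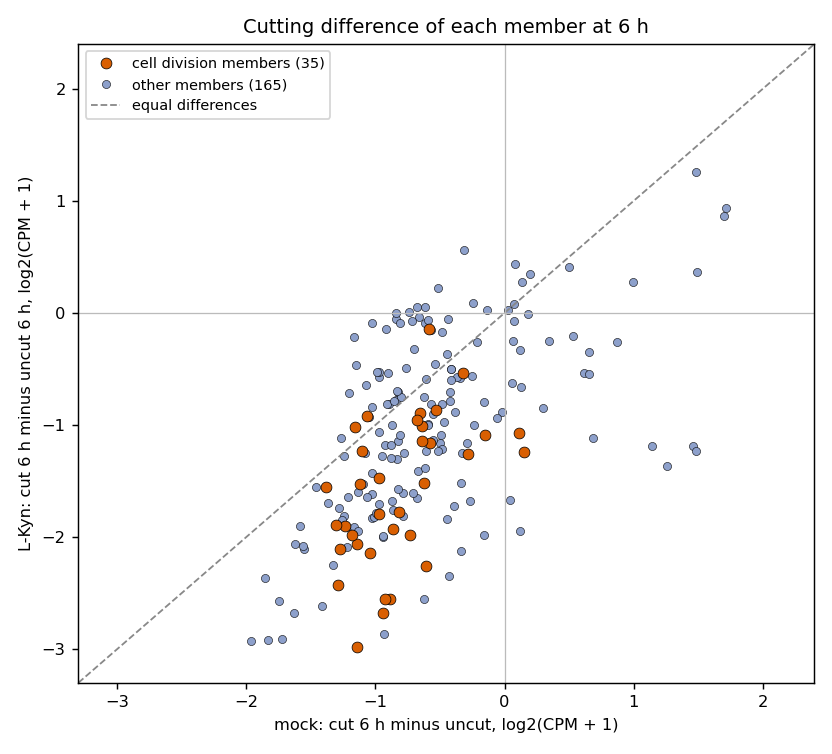
Each point is a member, with its mock difference at 6 h (cut minus uncut) on the x axis and its L-Kyn difference at 6 h (cut minus uncut) on the y axis, both in log2(CPM + 1). Of the 35 cell division members (orange), 32 lie below the dashed line of equal differences, as do 119 of the 165 others. The mock difference at 6 h took part in the choice of members, which favours points below the line.

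Of the 9 called members, 5 are cell division members as defined above. TPX2, AT5G15510 and 3xHMG-box2, described below, are counted among the other members. SYP111 (KNOLLE), the syntaxin that fuses vesicles into the cell plate, had 9.33, 5.46 and 3.49 CPM in L-Kyn cut tips at 6 h, against 42.1 and 63.5 CPM in L-Kyn uncut tips at 6 h. Mock cut tips at 6 h had 24.3 and 25.4 CPM. The L-Kyn groups did not overlap, and the log2 fold change of SYP111 was -3.07 ± 0.63 (SE; edgeR quasi-likelihood test, Benjamini-Hochberg adjusted p = 0.0399).

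ATK5, a kinesin that focuses spindle poles, had 8.66, 8.59 and 8.48 CPM in L-Kyn cut tips at 6 h, against 43.5 and 69.5 CPM in L-Kyn uncut tips at 6 h. Its log2 fold change was -2.79 ± 0.56 (SE; edgeR, Benjamini-Hochberg adjusted p = 0.0399). The groups did not overlap, and mock cut tips at 6 h, at 23 and 24.1 CPM, lay between them. MAD2, a protein of the spindle checkpoint, had 13.3, 10.9 and 8.48 CPM in L-Kyn cut tips at 6 h, against 53 and 86.6 CPM in L-Kyn uncut tips (log2 fold change -2.72 ± 0.56 SE, edgeR, Benjamini-Hochberg adjusted p = 0.0399). Mock cut tips at 6 h had 29.4 and 32.5 CPM of MAD2, so the L-Kyn cut libraries lay below these as well. TPX2, which nucleates spindle microtubules, had 1.33, 3.12 and 1.99 CPM in L-Kyn cut tips at 6 h, against 17.3 and 16.6 CPM in L-Kyn uncut tips (log2 fold change -3.16 ± 0.67 SE, edgeR, Benjamini-Hochberg adjusted p = 0.0406). Its symbol names more than 1 locus in the RefSeq table, so TPX2 is not counted among the 35.

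TOPII, the topoisomerase that untangles chromosomes before they part, had 26.9, 38.3 and 23.4 CPM in L-Kyn cut tips at 6 h, against 101 and 152 CPM in L-Kyn uncut tips. Its log2 fold change was -2.19 ± 0.50 (SE; edgeR, Benjamini-Hochberg adjusted p = 0.049). 3xHMG-box2, an HMG-box protein that binds mitotic chromosomes, had 42.9, 54.6 and 42.9 CPM in L-Kyn cut tips at 6 h, against 222 and 354 CPM in L-Kyn uncut tips (log2 fold change -2.71 ± 0.60 SE, edgeR, Benjamini-Hochberg adjusted p = 0.0443). Neither gene overlapped between these groups. In mock tips TOPII was at 74.8 and 61 CPM at 6 h after the cut, against 136, 213 and 117 CPM in uncut tips, and 3xHMG-box2 was at 105 and 93 CPM, against 474, 343 and 227 CPM.

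The remaining called members have no symbol. AT2G22610, described as a kinesin, had 3.11, 3.9 and 1.5 CPM in L-Kyn cut tips at 6 h, against 18.7 and 27.5 CPM in L-Kyn uncut tips (log2 fold change -3.09 ± 0.71 SE, edgeR, Benjamini-Hochberg adjusted p = 0.0497). AT5G15510, of the TPX2 family, had 2, 7.81 and 3.49 CPM, against 29.6 and 43.8 CPM (log2 fold change -3.31 ± 0.74 SE, edgeR, Benjamini-Hochberg adjusted p = 0.0464). Both were apart between the groups, and both carry 2 MSA cores among the stretches printed above. AT5G60530, a protein related to late embryogenesis abundant proteins, is the member with the highest level. It had 233, 294 and 193 CPM in L-Kyn cut tips at 6 h, against 1753 and 1850 CPM in L-Kyn uncut tips (log2 fold change -2.97 ± 0.66 SE, edgeR, Benjamini-Hochberg adjusted p = 0.0443). Its promoter holds no MSA core, and neither does that of ATK5, while 7 of the 9 called members have at least 1. For AT5G60530 mock cut tips at 6 h were at 151 and 194 CPM, overlapping the L-Kyn cut tips, against 871, 548 and 480 CPM in mock uncut tips.

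**Figure D4:**
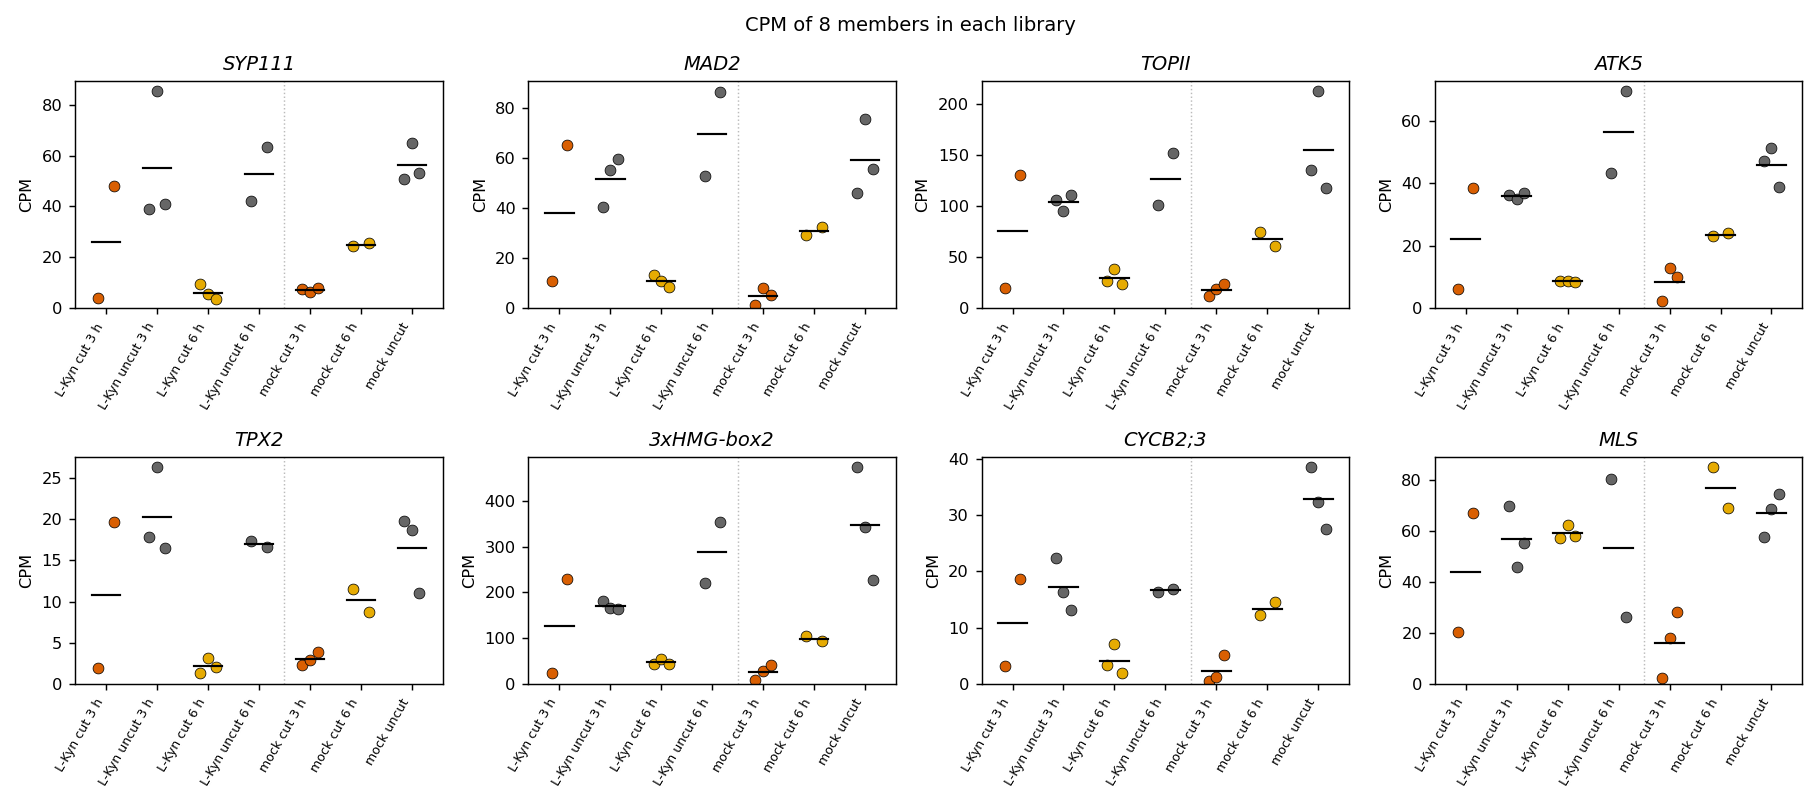
Points are the CPM of 8 members in each library (cut tips orange at 3 h and yellow at 6 h, uncut tips grey) and bars are group means. For SYP111, MAD2, TOPII, ATK5, TPX2, 3xHMG-box2 and CYCB2;3 the L-Kyn cut 6 h libraries lie below the mock cut 6 h libraries and all uncut libraries, while for MLS they lie between 57.1 and 62.5 CPM, among the uncut tips.

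B-type cyclins, the partners of the kinases that drive entry into mitosis, gave the densest group. Of 10 matched by symbol and measured, 8 were members, namely CYCB2;3, CYCB2;1, CYCB1;4, CYC1BAT (CYCB1;2), CYCB2;2, CYCB1;1, CYCB2;4 and CYCB3;1. The listed CYCB2;5 matched no locus by symbol, so it is left out of these counts and sums whether or not it is a member. Summed over the 8, L-Kyn cut tips at 6 h had 22.4, 21.9 and 17.5 CPM, against 90.04 and 88.2 CPM in L-Kyn uncut tips at 6 h. Mock tips had 9.77, 22.1 and 17.4 CPM at 3 h and 83.1 and 76.3 CPM at 6 h after the cut, against 147, 144 and 225 CPM in mock uncut tips. L-Kyn cut tips at 6 h were thus within the range of mock cut tips at 3 h or close above it, and mock cut tips at 6 h were clear of both. CYCB2;3 had 3.33, 7.03 and 1.99 CPM in L-Kyn cut tips at 6 h, against 16.3 and 16.9 CPM in L-Kyn uncut tips. CYCB1;1 had 2, 0 and 0.499 CPM, against 9.85 and 6.22 CPM. All 8 were apart in that direction, yet none passed the edgeR test at 6 h, with Benjamini-Hochberg adjusted p between 0.0915 and 0.471, and 6 were lower at an unadjusted p under 0.05. In the fit without the L-Kyn cut 3 h library numbered 2, 3 of the 8 were called lower.

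The other division lists held fewer members. Of 10 A-type cyclins measured, CYCA1;1 and CYCA2;4 were members, and of 10 D-type cyclins, which act at entry into the cycle, none was. CYCA1;1 was back in mock cut tips at 6 h, with 24.3 and 23.7 CPM, against 14.9, 31.8 and 20.8 CPM in mock uncut tips. With L-Kyn it had 4, 5.46 and 4.49 CPM in cut tips at 6 h, against 11.9 and 12.7 CPM in uncut tips, with no overlap (log2 fold change -1.49 ± 0.79 SE, edgeR, Benjamini-Hochberg adjusted p = 0.344). Of 23 mitotic kinase and checkpoint genes, 6 were members, and MAD2 was the one called at 6 h over the whole list. Of the others, AUR2, an Aurora kinase, had 1.33, 0.781 and 1.99 CPM in L-Kyn cut tips at 6 h, against 7.14 and 6.74 CPM in L-Kyn uncut tips (edgeR, Benjamini-Hochberg adjusted p = 0.149). BUBR1, a checkpoint protein, CDKB2;2, a plant mitotic kinase, and UVI4-LIKE, an inhibitor of the anaphase-promoting complex, had L-Kyn differences at 6 h of -1.26, -0.92 and -0.54. MYB3R-4, an activator that binds MSA elements, had 3.33, 5.46 and 3.99 CPM in L-Kyn cut tips at 6 h, against 14.6 and 4.93 CPM in L-Kyn uncut tips, so its groups overlapped.

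Of 31 spindle, cytokinesis and chromosome genes, 8 were members, and 3 of the 31 were called lower at 6 h with L-Kyn, all of them members (TOPII, SYP111 and ATK5). ATK1, PLE (MAP65-3, which bundles microtubules in the phragmoplast), POK2, KINESIN-12B and CSLD5 were the other members. PLE had 2.89, 2.34 and 4.99 CPM in L-Kyn cut tips at 6 h, against 11.2 and 19.4 CPM in L-Kyn uncut tips. POK2, a kinesin that guides the phragmoplast, had 4.22, 7.81 and 9.47 CPM, against 24.8 and 27.5 CPM. Without the L-Kyn cut 3 h library numbered 2, 9 of the 31 were called lower at 6 h by edgeR, 7 of them members. Of 41 DNA replication genes measured, 1 was a member (POLD3, a DNA polymerase subunit), and none of the 40 tested was called by edgeR at 6 h in the fit of all libraries, with 9 lower and none higher at an unadjusted p under 0.05.

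Some members were near the level of uncut tips with L-Kyn at 6 h. The L-Kyn difference at 6 h was -0.5 or higher, a limit chosen with the values known, for 47 of 165 other members and for 1 of 35 cell division members. MLS, the malate synthase of the glyoxylate cycle, had 57.1, 62.5 and 57.8 CPM in L-Kyn cut tips at 6 h, against 80.5 and 26.2 CPM in L-Kyn uncut tips. Its mock values were 2.33, 18 and 28 CPM at 3 h and 85 and 68.9 CPM at 6 h after the cut, against 57.7, 68.7 and 74.6 CPM in mock uncut tips. XTH9, an enzyme that remodels xyloglucan in the cell wall, had 19.1, 36.7 and 19.4 CPM in L-Kyn cut tips at 6 h, against 26.8 and 18.9 CPM in L-Kyn uncut tips. The groups overlapped for both. COBL1, CYP71B23 and SS4, a starch synthase, had L-Kyn differences at 6 h of -0.03, 0.02 and 0.06, and none of the 3 was called.

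Members from the list of indole glucosinolate genes had L-Kyn differences at 6 h less negative than the median of -1.10 over all members. CYP79B2, which makes indole-3-acetaldoxime from tryptophan, CYP83B1 and SOT17, which act later toward glucosinolates, were the 3 members among 23 genes of that list. CYP83B1 had 51.3, 21.1 and 31.4 CPM in L-Kyn cut tips at 6 h, against 30.9 and 55.5 CPM in L-Kyn uncut tips, so the groups overlapped. In mock tips CYP83B1 had 2.79, 6.4 and 8.41 CPM at 3 h and 43.4 and 45.2 CPM at 6 h after the cut, against 19.9, 13.6 and 77.2 CPM in mock uncut tips. The L-Kyn differences in log2(CPM + 1) at 6 h were -0.58 for CYP79B2, -0.34 for CYP83B1 and -0.07 for SOT17, with edgeR Benjamini-Hochberg adjusted p of 0.712, 0.828 and 0.91. All 3 met the 50% measure. BBM, a transcription factor of the stem cell niche, was the 1 member of 16 genes in that list, with 7.55, 7.81 and 10.5 CPM in L-Kyn cut tips at 6 h, against 8.83 and 11.4 CPM in L-Kyn uncut tips. CVP2, a gene of vascular patterning, was the 1 member of 15 phloem genes, with an L-Kyn difference of -0.09. No gene of the lists for aliphatic glucosinolates, tryptophan synthesis, auxin synthesis, auxin transport, auxin response, root cap, epidermis, endodermis, xylem or the clock was a member.

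The level of some members differed between the library sets in uncut tips. CAB1, CAB2 and CAB3 code for chlorophyll-binding proteins, are near-identical and share reads, so that their separate values are uncertain. CAB2 had 0, 0.581 and 1.12 CPM in mock cut tips at 3 h and 14.7 and 30.7 CPM at 6 h, against 22.3, 9.55 and 2.27 CPM in mock uncut tips. In L-Kyn uncut tips it had 1.44, 3.88 and 1.67 CPM at 3 h and 55 and 21.3 CPM at 6 h, a difference seen without a cut. Set and hours coincide in L-Kyn uncut tips, so they cannot be told apart there. Over 12 genes of green tissue the sums were 346, 240 and 99.7 CPM in L-Kyn cut tips at 6 h, against 635 and 297 CPM in L-Kyn uncut tips at 6 h. In L-Kyn uncut tips at 3 h they were 27.6 to 41.1 CPM. SGA2, an ASF1-like histone chaperone, had 21.4, 17.4 and 26.3 CPM in mock cut tips at 3 h and 309 and 285 CPM at 6 h, against 128, 251 and 35.7 CPM in mock uncut tips. In L-Kyn uncut tips SGA2 had 31.1, 20.9 and 31.3 CPM at 3 h and 129.8 and 91.3 CPM at 6 h. Of the cell division members 4 of 35 followed the sets in the direction counted, lower in L-Kyn uncut tips at 3 h. Of the others 85 of 165 did. Members that were higher there at 3 h were not counted. The 8 B-type cyclin members summed to 106, 158 and 106 CPM in L-Kyn uncut tips at 3 h. At 6 h they summed to 90.04 and 88.2 CPM. Mock uncut replicate 3 had 225 CPM, against 147 and 144 CPM in replicates 1 and 2. The median L-Kyn difference at 6 h compares libraries of the same set. It was -1.0 over the 89 members that followed the sets in the direction counted and -1.16 over the other 111. With the sets kept apart in the choice, 139 of the 200 members still met the rule and 71 stayed among the 200 lowest.

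**Figure D5:**
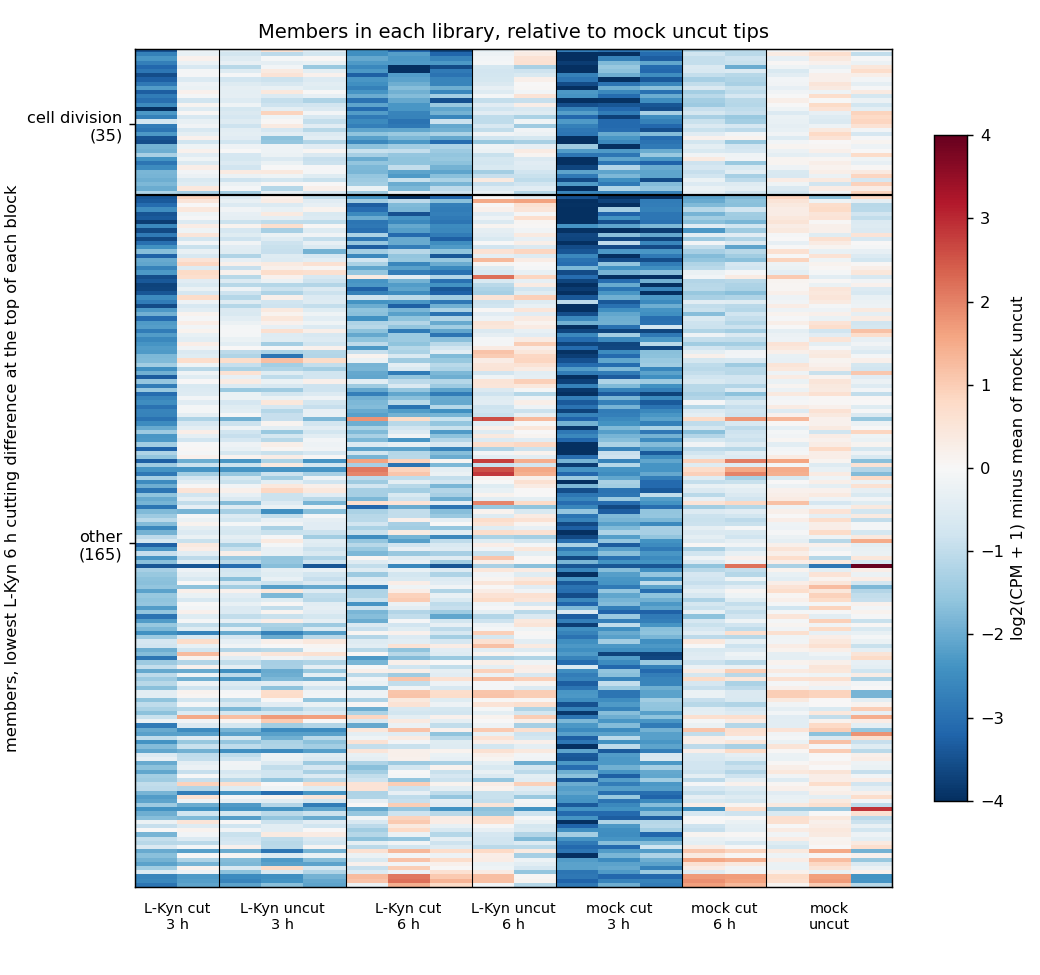
Rows are the 200 members and columns the 18 libraries. Colour gives log2(CPM + 1) minus the mean of mock uncut tips, with the cell division members above the line and rows ordered by the L-Kyn difference at 6 h. Blue in the L-Kyn cut 6 h columns covers nearly the whole upper block, while the lower block runs over to pale or red rows.

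At 3 h with L-Kyn the answer depends on the library numbered 2. The members' median difference between L-Kyn cut and L-Kyn uncut tips at 3 h was -0.62 with both cut libraries and -1.58 without that library, against 0.02 and 0.00 over all loci. In the edgeR fit of all libraries no gene was called at 3 h with Benjamini-Hochberg adjustment (0% of genes), and at an unadjusted p under 0.05 no member was lower or higher. DESeq2 called 48 genes there, none of them a member. Without that library edgeR called 36 of 200 members lower and none higher, against 0.579% of all genes lower and 1.42% higher (2% in all), and 12 of the 36 were cell division members. The L-Kyn cut 3 h group then holds 1 library, whose spread is taken from the other groups. That library lay below all L-Kyn uncut 3 h libraries for 160 of 200 members, against 28.7% of all loci, and both L-Kyn cut 3 h libraries did so for 10, against 6.27%. For SYP111 it had 4.13 CPM and the library numbered 2 had 47.9 CPM, against 38.8, 85.3 and 40.9 CPM in L-Kyn uncut tips at 3 h. Its log2 fold change without the library numbered 2 was -3.66 ± 0.65 (SE; edgeR, Benjamini-Hochberg adjusted p = 0.00311).

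Whether members came back between 3 h and 6 h with L-Kyn was tested as the cutting difference at 6 h minus that at 3 h. The edgeR fit of all libraries called no gene with Benjamini-Hochberg adjustment (0% of genes), and at an unadjusted p under 0.05 it had 25 members lower and none higher, against 400 lower and 387 higher among 16354 genes. The median over members was -0.88. DESeq2 called 6 genes and no member. Without the L-Kyn cut 3 h library numbered 2 the median was 0.43, 1 gene and no member was called (0.00591% of genes), and at an unadjusted p under 0.05 it had 13 members higher and none lower, against 292 higher and 236 lower among 16934 genes. The direction of this difference thus turns on that library, and a return with L-Kyn was not detectable by this test. In the simulated data, in which no library was made to deviate, the test of this difference found 12% of genes changed 4-fold. The values per member that can be set beside each other are the L-Kyn differences at 6 h and, without that library, at 3 h, of which the first was the higher for 142 of 200 members and 28 of 35 cell division members. It was the higher for 11095 of all 22093 loci and for 136 of the 292 that had not come back in mock tips. For SYP111 they were -2.98 and -3.35, for MAD2 -2.55 and -2.15, and for MLS 0.35 and -1.41.

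The limits of the rule cut through a continuous range. The last members by early difference were AT4G39470 and AT2G05250, both at -2.08, and the first loci left out were AT5G61330 at -2.08 and PARP1 at -2.07. At the limit on return, CYP702A2 was a member with a late difference of -1.26 and an early one of -2.53. EB1C, a protein at microtubule plus ends, was not, with -1.16 and -2.33. AT1G33900 was inside the limit on overlap, with a highest mock cut 3 h value of 0.581 CPM and a lowest mock uncut value of 0.973 CPM.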

How the data were processed

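Counts of reads per locus in 18 libraries were deposited by the authors as 1 table, not normalised. The submitters' processing notes name the tools Bowtie2, HTSeq and DESeq2, without versions, and the build TAIR10. Reads on loci ran from 1280947 to 4839810 per library, so that 3 counts are 0.620 to 2.34 CPM. These floors cover counting error only. The 3 summary lines of the counting tool, 56.6% to 88.5% of a library's total, were left out. Libraries were grouped by their titles.

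Members were found as described above, and all 200 passed edgeR's expression filter. Tests were contrasts in an edgeR 4.0.16 quasi-likelihood fit with TMM factors and a mean per group, two-sided, in R 4.3.3, with Benjamini-Hochberg adjustment over all genes tested. Members and lists were chosen with earlier results of these data known. Named genes are members with the lowest early differences, those in a list, called, or with the highest or lowest L-Kyn difference at 6 h or mock uncut level, and loci beside a limit. AT5G02370, emb1688, CYCB2;4, CYCB3;1, KINESIN-12B, CSLD5 and AT5G15510 complete counts and were named with their values seen, as were SCR, SHR and PLT1. Since no label ties a library to seedlings of its own, p-values cover only the spread between these libraries, and that spread may be technical. On simulated data the 6 h test recovered 60% of genes changed 4-fold and 5% of those changed 2-fold, among 15756 genes. The changed genes were drawn only from those above a minimum mean count, so the shares do not cover members with few counts.

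Symbols and promoters were taken by locus ID from RefSeq assembly TAIR10.1. All 200 members matched, 94 of them with a symbol. Of 375 list entries, 338 matched a locus and 327 were in the table. Alternatives were DESeq2 1.42.0, RLE factors, other filters, a replicate block, the compared groups alone and single libraries left out, and, for the rule and the 50% measure, TMM-scaled CPM, other pseudocounts, other baselines and a minimum level.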

Additional observations from a re-analysis of the deposited data

How the results depend on the processing

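The 9 members called lower at 6 h with L-Kyn had log2 fold changes that stayed negative in all alternatives, and their edgeR or DESeq2 adjusted p ran from 0.000104 to 0.746. Members called lower numbered 37 with DESeq2, 19 with no filter, 70 with the compared groups alone, 0 with the replicate block, and 0 to 49 with 1 of the 5 libraries compared or the L-Kyn cut 3 h library numbered 2 left out, the 49 being without the L-Kyn cut 3 h library numbered 2. All genes called, 99 in the fit reported, numbered 709, 201, 997, 11 and 0 to 560 under these settings. The median over members ran from -1.41 to -1.15 with 1 of these 6 libraries left out. At 3 h, genes called numbered 48 with DESeq2, 44 with no filter and 0 to 339 with 1 of the 5 libraries compared left out, and members called lower 0 to 36. Their median ran from -1.92 to 0.19, the last without L-Kyn cut 3 h replicate 1. For 6 h minus 3 h, genes called numbered 6 with DESeq2 and 0 to 76 with 1 of the 10 L-Kyn libraries left out, members called lower 0 to 9 and the median -1.47 to 0.43. The replicate block is not a pairing known from the labels. The 13 pairs of same-numbered L-Kyn libraries had correlations of deviations from -0.16 to 0.20, 2 of them above 0.1. These 2 are the same value, since deviations from the mean mirror each other in a group of 2 libraries.

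The count of members that met the 50% measure with L-Kyn, 118, lay between 103 and 129 in the alternatives that keep all 200 members. The median L-Kyn difference at 6 h was -0.70 with a pseudocount of 5, -1.27 against mock uncut replicates 1 and 2, -1.25 over the 147 members with at least 10 CPM in mock uncut tips, -1.53 and -0.97 for cell division and other members apart, and -1.22 to -1.0 with 1 L-Kyn 6 h library left out. Of the 200 members, 84 stayed with a pseudocount of 5, 71 with library sets kept apart and 111 to 187 with each mock library left out, 111 without mock uncut replicate 3 and 130 without mock cut 3 h replicate 1. Depth limits the early differences, since the median member had 9 counts over the mock cut 3 h libraries.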
